A study of Mus musculus with 6 samples.

Results

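Apolipoproteins are the protein coat of the particles that carry cholesterol and triglyceride through plasma, and 10 of their genes are described here: Apoa1, Apoa2, Apoa4, Apoa5, Apob, Apoc1, Apoc2, Apoc3, Apoe and Apom. They were taken as the genes of these names for which the array holds a probe set with a single gene symbol, and where a gene had several such probe sets the one with the highest mean on the 6 arrays stands for it. All 10 were found, among 18193 genes measured. Transcripts were measured on Affymetrix mouse arrays in whole livers of male mice aged 10 weeks, 1 array per liver. The 3 KO livers carry the genotype L Pex5 -/- and the 3 WT livers are labelled wild type. Both groups are given the same mixed background, Alb-Cre Tac:[Sw]fBR, so the label places Alb-Cre in the controls as well. Alb-Cre puts the recombinase under the promoter of albumin, a hepatocyte gene, and whether it acted in other liver cells was not measured. Pex5 is the receptor that brings newly made enzymes into peroxisomes, and the series title links their loss to AMPK, PGC-1alpha and carbohydrate use.

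The liver secretes very low density lipoprotein on a backbone of apolipoprotein B and supplies most of the apolipoprotein A-I of high density lipoprotein (HDL). Smaller exchangeable apolipoproteins move between particles and set their fate in plasma: C-II activates lipoprotein lipase, C-III opposes it, A-V favours triglyceride clearance, and E is a ligand of hepatic receptors. Apolipoprotein M is a lipocalin that sits on HDL and carries sphingosine 1-phosphate.

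In KO livers 4 of the 10 genes were lower and 0 were higher. Apom fell 14.0-fold, Apoa4 3.26-fold, Apoc3 1.89-fold and Apoa5 1.48-fold, whereas Apoa1, Apoa2, Apob, Apoc1, Apoc2 and Apoe differed by between -0.20 and 0.31 on the log2 scale and did not pass. Over all genes 9.75% were lower and 14.2% higher by the same rule, which is limma's test with Benjamini-Hochberg adjustment over 18193 genes and an adjusted p under 0.05. With only the 12032 genes above background fitted, 13% were lower and 21.8% higher, and the apolipoprotein counts stayed at 4 and 0. The median difference of the 10 genes was -0.15, against -0.055 over all genes. In 9 of the 10 genes the KO arrays did not overlap the WT arrays, 6 lying below and 3 above, against 44.8% of all genes (22.6% below and 22.1% above). Apoc2, higher, and Apoc1, lower, had an unadjusted p under 0.05 in limma (0.0199 and 0.0387) without passing after adjustment. The share of all genes under that looser threshold was not counted. Levels are on the log2 scale and every difference is the KO mean minus the WT mean. An error is marked as the SD of 3 livers or as the SE from limma. The arrays are described as biological replicates, and since whole liver was sampled, fewer cells of a type and less RNA per cell cannot be told apart.

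**Figure D1:**
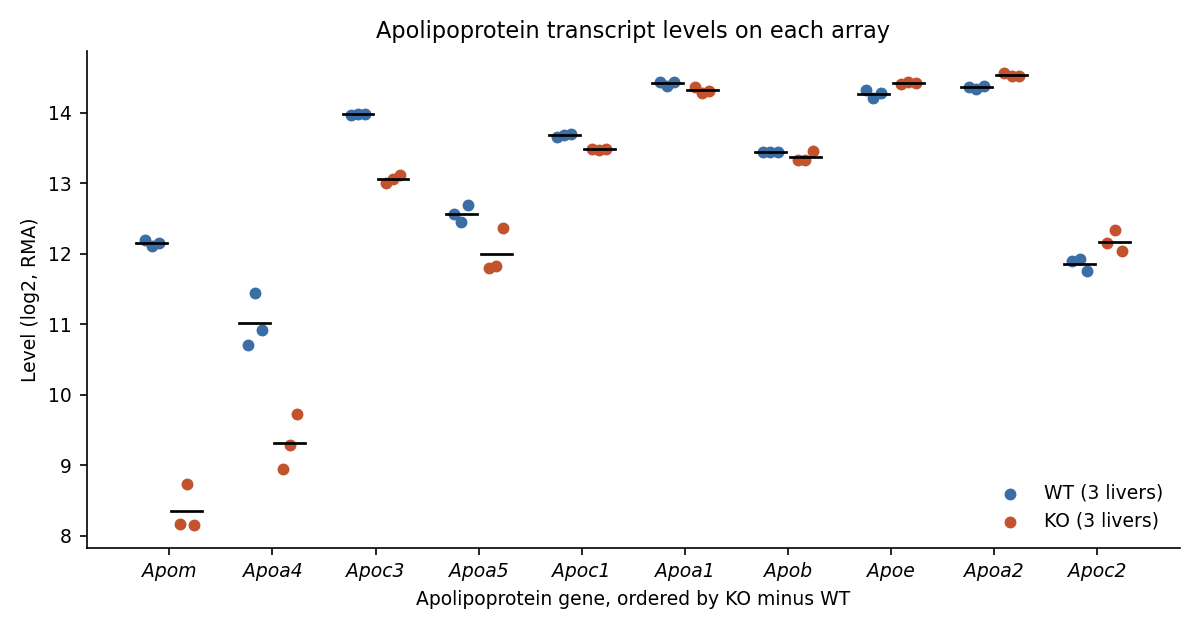
Level of each apolipoprotein transcript (log2, vertical axis) on the 3 WT and 3 KO arrays, with genes ordered by KO minus WT and horizontal lines at group means. Apom sits above 12 on every WT array and below 9 on every KO array, and of the 10 genes only Apob has groups that overlap.

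Over all genes the lowest correlation between arrays of the same group (0.989) was above the highest between groups (0.976). Pex5 itself read 9.04 ± 0.14 (SD, n = 3) in WT livers and 9.22 ± 0.11 in KO livers, and since it is not known whether the probe set lies in the deleted part, this does not check the labels. Control transcripts that are added to every sample were dimmer on KO arrays. The hybridisation controls BioB, BioC, BioD and Cre had WT means of 8.69, 10.0, 11.57 and 13.44 and differed by -0.49, -0.42, -0.33 and -0.07. The poly-A controls Lys, Phe, Thr and Dap had WT means of 8.68, 9.11, 9.99 and 11.65 and differed by -0.60, -0.56, -0.64 and -0.46, with no such steady order. For the 7 control transcripts other than Cre the exact two-sided permutation p was 0.1, the smallest that 3 against 3 arrays can give, and for Cre it was 0.2. Centring the arrays on the 38 bacterial control probe sets adds 0.59 to every difference and gives 6 higher and 3 lower apolipoproteins, where 77.7% of all genes are called higher and 1.86% lower. Centring on the 4 Cre probe sets, an alternative added after these values were seen, adds 0.06 to each difference and leaves 4 lower and 0 higher. Whether differences are compressed at the brightest signals, where Apoa1, Apoa2, Apob, Apoc1, Apoc3 and Apoe lie (WT means of 13.44 to 14.42), was not tested.

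**Figure D2:**
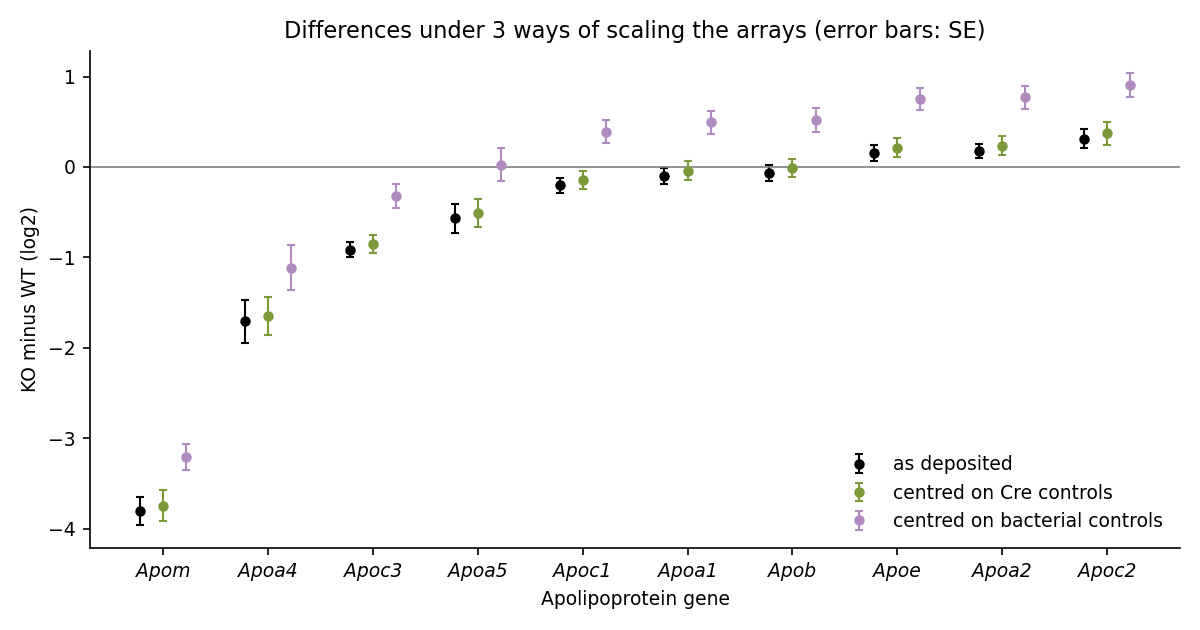
KO minus WT (log2, vertical axis) of each apolipoprotein with its SE, as deposited, with arrays centred on the Cre controls and with arrays centred on the bacterial controls. Apom, Apoa4 and Apoc3 lie below 0 under all 3, and the other 7 genes lie above 0 with bacterial controls.

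Apom had the largest difference of the family. It stood at 12.20, 12.10 and 12.16 on the WT arrays and at 8.17, 8.73 and 8.15 on the KO arrays. The lowest WT liver was thus more than 3 log2 units above the highest KO liver. Its group means were 12.15 ± 0.05 and 8.35 ± 0.33 (SD, n = 3). The difference was -3.80 ± 0.16 (SE, adjusted p = 1.04e-05, limma). By size of fall it ranked 13 of 18193 genes. A second probe set of Apom went from 11.98 ± 0.01 to 8.44 ± 0.31, an 11.6-fold fall. Leaving out each array in turn gave differences from -3.99 to -3.70, and with the bacterial controls the difference was -3.21. Over the 6 arrays the profiles most like that of Apom, among 12031 other genes above background, were those of Glipr2, Cyp8b1 and Cyp2d13 (Pearson r of 0.9986, 0.9976 and 0.9973). These correlations share the group difference and are given as a description. Cyp8b1, a sterol hydroxylase of bile acid synthesis, and Cyp2d13, a cytochrome P450, differed by -3.08 and -4.77, while Glipr2 differed by -0.30.

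Apoa4 encodes an exchangeable apolipoprotein made in intestine and liver. Its levels were 10.71, 11.44 and 10.92 in WT and 8.94, 9.28 and 9.73 in KO. Both groups were spread over more than 0.7 log2 units, and they did not overlap. The difference was -1.71 ± 0.24 (SE, adjusted p = 0.00202, limma). The probe set is of a kind whose probes may match other transcripts, and the gene's other probe set, without that mark, went from 10.46 ± 0.40 to 8.58 ± 0.34, a fall of 3.69-fold.

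Apoc3, the inhibitor of lipoprotein lipase, had the tightest groups of the genes that fell. It read 13.97, 13.98 and 13.99 in WT and 13.01, 13.07 and 13.12 in KO. The difference of -0.92 ± 0.08 (SE, adjusted p = 0.000273, limma) exceeded the spread within either group, and it was -0.32 with the bacterial controls (adjusted p = 0.0377, limma).

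Apoa5, the apolipoprotein that favours triglyceride clearance, stood at 12.56, 12.45 and 12.69 in WT and at 11.79, 11.83 and 12.37 in KO. The third KO liver lay close under the WT range and the other 2 well below it. The difference was -0.57 ± 0.16 (SE, adjusted p = 0.0385, limma). This call rests on few arrays: leaving out KO replicate 3 gave -0.75 (adjusted p = 0.00722, limma), and leaving out any other single array lost it. The adjusted p was then 0.0729, 0.0569 and 0.0927 without WT replicates 1, 2 and 3, and 0.128 and 0.137 without KO replicates 1 and 2. With bacterial controls the difference was 0.03.

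The promoters of Apom, Apoa4 and Apoa5 are shown so that genes that fell can be set beside Apoa1, a gene of the same cluster as Apoa4 and Apoa5 that did not pass. RefSeq's table for GRCm38.p6 holds 12 promoters for 8 of the 10 genes. Apoc3, which also fell, and Apoc1 were not matched, so their promoters were not searched. The 250 bases before the start are printed 5′ to 3′ on the gene's strand, with capitals marking matches to 10 short motifs, chosen after the sequences were seen. The positions are chr17:35131802-35132051 (minus strand) for Apom, chr9:46240594-46240843 (plus) for Apoa4, chr9:46268358-46268607 (plus) for the first start of Apoa5 and chr9:46228380-46228629 (plus) for Apoa1.
Apom: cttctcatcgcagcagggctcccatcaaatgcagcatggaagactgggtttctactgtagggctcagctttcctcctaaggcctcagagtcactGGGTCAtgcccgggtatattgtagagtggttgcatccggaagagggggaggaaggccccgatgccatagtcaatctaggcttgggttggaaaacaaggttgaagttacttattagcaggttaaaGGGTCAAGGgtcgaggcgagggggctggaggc
Apoa4: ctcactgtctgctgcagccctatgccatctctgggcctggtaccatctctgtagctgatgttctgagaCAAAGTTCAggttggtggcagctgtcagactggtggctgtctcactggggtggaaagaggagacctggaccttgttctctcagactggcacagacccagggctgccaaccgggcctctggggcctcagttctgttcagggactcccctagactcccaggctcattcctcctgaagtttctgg
Apoa5: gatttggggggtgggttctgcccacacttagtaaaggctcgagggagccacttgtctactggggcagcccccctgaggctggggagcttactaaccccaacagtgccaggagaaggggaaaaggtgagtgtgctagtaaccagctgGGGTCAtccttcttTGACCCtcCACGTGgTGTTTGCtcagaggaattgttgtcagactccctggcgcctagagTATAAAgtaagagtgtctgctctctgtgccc
Apoa1: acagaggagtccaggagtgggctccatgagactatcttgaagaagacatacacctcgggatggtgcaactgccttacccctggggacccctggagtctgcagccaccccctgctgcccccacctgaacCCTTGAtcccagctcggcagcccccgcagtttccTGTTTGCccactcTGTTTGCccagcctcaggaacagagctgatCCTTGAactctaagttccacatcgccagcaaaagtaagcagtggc

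The motifs, read on both strands, were CAAAGNNCA (a form bound by HNF4 and PPAR factors), AGGTCA (a nuclear receptor half-site), GGGTCA (another such half-site), TCAAGG (NR5A type), GTTAAT (an HNF1 half-site), TGTTTAC (a forkhead site), TGTTTGC (another forkhead site), CACGTG (an E-box), TGACGT (a CRE half-site) and TATAAA (the core promoter box). In Apom the letters GGGTCA ended 27 bases before the start and overlapped TCAAGG, which ended 24 bases before it, and a further GGGTCA lay at 156 to 151 bases. GGGTCA occurs in 11.6% of 32851 promoters of this length and TCAAGG in 12.5%. In Apoa4 the single match was CAAAGNNCA at 182 to 174 bases, a motif held by 5.49% of promoters. Apoa5 held GGGTCA on both strands, CACGTG (6.02% of promoters), TGTTTGC (4.3%) and TATAAA (12.4%). Apoa1 held TGTTTGC and TCAAGG, each at 2 places. Apom, Apoa4 and Apoa5 shared none of these motifs: GGGTCA was in Apom and Apoa5 but not in Apoa4. Besides Apoa1, other members that did not pass held the same strings. CAAAGNNCA and TGTTTGC were in Apob, GGGTCA in Apoe, TCAAGG in Apoa2, and TATAAA in Apoa2, Apob and Apoe. Among the members searched, CACGTG was in Apoa5 alone. A match is a string of letters and not a measured site.

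Apoa1, Apoc3, Apoa4 and Apoa5 follow each other on chromosome 9 with no other protein-coding gene between them in RefSeq, and their differences were -0.10, -0.92, -1.71 and -0.57 in that order. Since a constant added to all log2 values of an array cancels in a difference between genes on it, each pair was compared that way. A normalization that acts by level does not cancel. With quantile normalization the difference of Apoa1 became -0.019 and that of Apoa5 -0.58. Relative to Apoa1, the KO minus WT difference was -1.61 for Apoa4, -0.81 for Apoc3 and -0.47 for Apoa5. Relative to Apoc3 it was -0.79 for Apoa4 and 0.35 for Apoa5 (0.19 without KO replicate 3), and Apoa5 relative to Apoa4 differed by 1.14. In all 6 pairs the KO arrays did not overlap the WT arrays, with an exact two-sided permutation p of 0.1 each, the smallest possible with 3 against 3 (0.113 adjusted over 9 pairs).

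The Apoc2, Apoc4, Apoc1 and Apoe genes form the other cluster, on chromosome 7, and there the differences went both ways without passing for the 3 members. Apoc2, the activator of lipoprotein lipase, read 11.90, 11.92 and 11.76 in WT and 12.15, 12.33 and 12.04 in KO. All KO arrays lay above all WT arrays, and the difference of 0.31 ± 0.11 missed the threshold (SE, 95% interval 0.06 to 0.56, adjusted p = 0.0702, limma). Apoc1, a small apolipoprotein of very low density lipoprotein and HDL, read 13.66, 13.68 and 13.70 in WT and 13.49, 13.47 and 13.48 in KO. Here the KO arrays lay below, by -0.20 ± 0.08 (SE, 95% interval -0.39 to -0.01, adjusted p = 0.110, limma). Apoe read 14.33, 14.21 and 14.27 in WT and 14.41, 14.44 and 14.43 in KO, a difference of 0.15 ± 0.08 (SE, 95% interval -0.04 to 0.35, adjusted p = 0.214, limma). Within arrays, Apoc1 relative to Apoe differed by -0.36 and Apoc2 relative to Apoc1 by 0.51, both without overlap (exact permutation p = 0.1). Apoc2 relative to Apoe differed by 0.16 with overlapping groups (exact permutation p = 0.2), and by 0.082 without KO replicate 2. Apoc4, between Apoc1 and Apoc2 and outside the 10 genes, fell by 0.49 ± 0.09 (SE, adjusted p = 0.00717, limma). With the bacterial controls its sign turned, to a value 0.10 higher in KO.

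**Figure D3:**
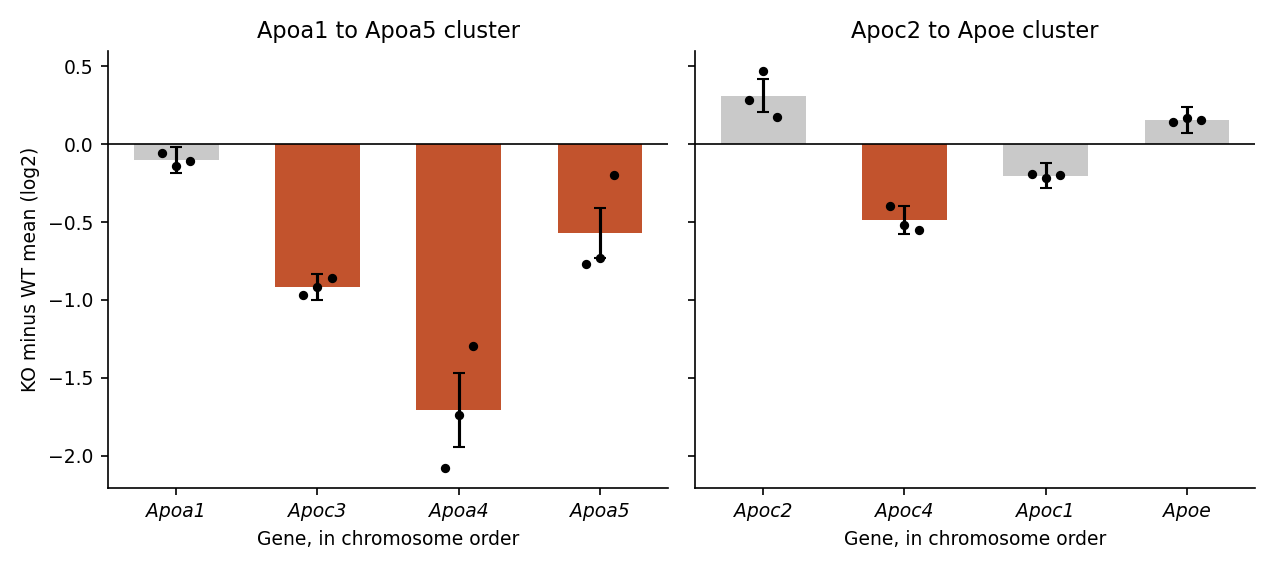
KO minus WT (log2, vertical axis) for the genes of both clusters in chromosome order, with bars at the fitted difference, error bars at the SE, points for each KO array relative to the WT mean, and colour for genes past the threshold. Apoa4 stands lowest at -1.71 and Apoa1, first in its cluster, at -0.10.

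The structural apolipoproteins of HDL and of very low density lipoprotein differed little. Apoa1, the main protein of HDL, read 14.43, 14.38 and 14.44 in WT and 14.36, 14.28 and 14.31 in KO. All KO arrays lay just below all WT arrays, at -0.10 ± 0.08 (SE, 95% interval -0.29 to 0.09, adjusted p = 0.407, limma). Its 4 probe sets differed by -0.10, -0.14, -0.11 and -0.23, the last being the dimmest. All but the last, the one used here among them, are of the kind whose probes may match other transcripts. Apoa2, the second protein of HDL, went the other way. It read 14.37, 14.33 and 14.38 in WT and 14.56, 14.53 and 14.53 in KO, a difference of 0.18 ± 0.08 (SE, 95% interval -0.01 to 0.37, adjusted p = 0.152, limma). Apob, the backbone of very low density lipoprotein, read 13.45, 13.44 and 13.44 in WT and 13.33, 13.33 and 13.46 in KO, with overlap through the third KO liver. Its difference was -0.07 ± 0.09 (SE, 95% interval -0.27 to 0.13, adjusted p = 0.582, limma). A dimmer probe set of Apob, at 10.58, 10.75 and 10.74 in WT, read 10.30, 10.04 and 10.15 in KO and was lower by 0.53 ± 0.11 (SE, adjusted p = 0.0130 over all probe sets, limma). The 2 probe sets of Apob therefore give different calls, and what each covers was not examined.

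The fit draws each gene's spread towards that of all genes. For Apoa2, Apoc1 and Apoe the SD within a group was at most 0.06, while the SE of the difference was about 0.08. With the trend and robust options, which let the expected spread depend on the level, Apoa2, Apoc2 and Apoe passed as higher (adjusted p = 0.0211, 0.0295 and 0.0497, limma) and Apoc1 as lower (0.0173).

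**Figure D4:**
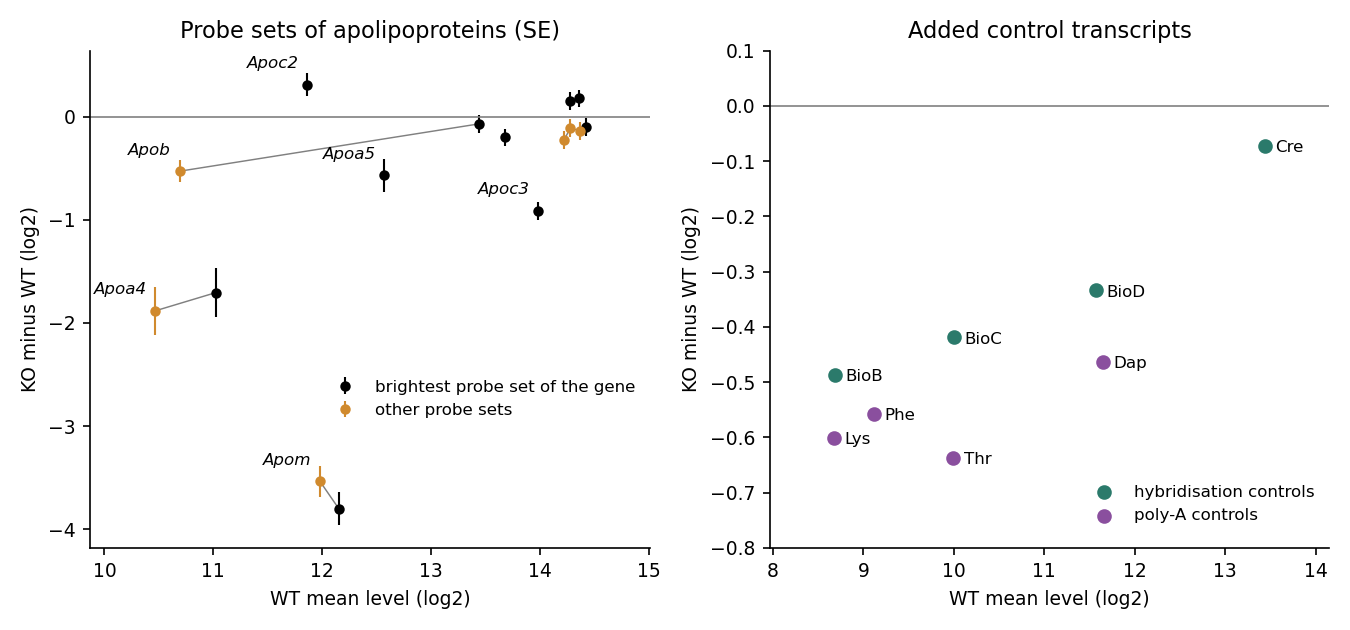
KO minus WT (log2, vertical axes) against the WT mean level (log2, horizontal axes) for the 16 probe sets of the apolipoproteins with SE (left, lines joining probe sets of a gene) and for the added control transcripts (right). Among the hybridisation controls the difference shrinks from -0.49 for BioB to -0.07 for Cre, while the poly-A controls lie between -0.64 and -0.46, and the dimmer Apob probe set lies at -0.53 against -0.07 for the brighter one.

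Among 10 further measured apolipoprotein genes 5 were lower and 0 higher (50% and 0%, against 9.75% and 14.2% of all genes). Their median difference was -0.26, against -0.055 over all genes. Apon, a plasma apolipoprotein of rodents, fell 3.33-fold (-1.74 ± 0.13, adjusted p = 9.80e-05, limma) and Saa4, the constitutive serum amyloid A of HDL, fell 3.22-fold (-1.69 ± 0.22, adjusted p = 0.00140, limma). Both stayed lower with the bacterial controls. Apoc4 is given above, and Apol7a fell by 0.46 ± 0.14, barely passing (adjusted p = 0.0482, limma). Leaving out any array other than WT replicate 3 lost the Apol7a call, and its difference was 0.14 with the bacterial controls. The fifth was Apoh, a phospholipid-binding plasma protein, at -0.32 (adjusted p = 0.0267, limma), named after its value was seen. Its call too was lost when any array other than WT replicate 3 was left out (adjusted p of 0.0579 to 0.0979, limma), which left 3 lower genes each time, and its difference was 0.27 with the bacterial controls. Apol6 and Apol8 were below background on all 6 arrays.

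The list for lipoprotein assembly and secretion, which includes lipid droplet and Apob mRNA editing genes, held 18 measured genes. Of them 5 were lower and 2 higher. These were 27.8% and 11.1%, against 9.75% and 14.2% of all genes. The lower count was 3 without KO replicate 2 or 3, and the higher count was 1 without KO replicate 1 or 2 or WT replicate 2. Mttp, the microsomal transfer protein, read 10.82 ± 0.06 (SD, n = 3) in WT livers and 10.34 ± 0.02 in KO livers, a fall of 0.48 ± 0.08 (SE, adjusted p = 0.00538, limma). With the bacterial controls Mttp was instead 0.11 higher in KO. The cargo receptor Surf4 fell 1.71-fold and the lipid droplet protein Cideb 1.58-fold, and both lost their call with the bacterial controls (-0.18 and -0.06). A1cf, a partner of the enzyme that edits Apob mRNA, was higher by 0.64 ± 0.15 (SE, adjusted p = 0.0180, limma), a call lost without KO replicate 1 or 2 or WT replicate 2 (adjusted p = 0.0695, 0.0732 and 0.0531). Cidec was higher too, at 3.57 in WT and 4.87 in KO, both means under the background of 4.90, so no fold is given.

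Receptors and uptake genes were higher in 3 of 11 measured members and lower in 3 (27.3% each). Over all genes 14.2% were higher and 9.75% lower. The receptor of very low density lipoprotein, Vldlr, was higher in KO, at 9.14 ± 0.34 against 4.81 ± 1.51 in WT (adjusted p = 0.00260, limma), and since 2 of the 3 WT arrays lay under background the size is not fixed. Cd36, a fatty acid and lipoprotein scavenger receptor, was higher by 4.92, and the HDL receptor Scarb1 and the remnant receptor Lrp1 were lower by 1.04 and 0.75. Lrp1 lost its call with the bacterial controls (-0.15) and with the mean of its probe sets (-0.32). Among lipases, HDL enzymes and exporters 4 of 18 were higher and 4 lower (22.2% each, against 14.2% and 9.75% of all genes). With only genes above background fitted the counts were the same. Of those genes 21.8% were higher and 13% lower, so the higher share of the list was near theirs. Lipoprotein lipase, Lpl, differed by 2.81 and its inhibitor Angptl4 by 1.16 ± 0.20, the latter 0.48 and not called with the mean of its probe sets. The procollagen protease Bmp1, which also matures apolipoprotein A-I, fell 2.17-fold (a difference of -1.12, against -0.62 when its probe sets were averaged) and the lipase maturation factor Lmf1 1.59-fold, the latter not called with the bacterial controls (-0.08).

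Of 28 measured transcription regulators named for apolipoprotein genes, 6 were lower and 1 was higher (21.4% and 3.57%, against 9.75% and 14.2% of all genes). The lower count was 10 without WT replicate 3 and 11 with quantile normalization, and the higher count was 2 without WT replicate 1. Hnf4a, the nuclear receptor that drives many hepatocyte genes, read 11.77 ± 0.18 in WT and 11.87 ± 0.07 in KO (0.11 ± 0.11, adjusted p = 0.514, limma). Creb3l3, an activator of Apoa4, Apoc2 and Apoa5, read 11.07 ± 0.13 and 11.01 ± 0.14 (-0.07 ± 0.11, adjusted p = 0.678, limma). Ppargc1a, the coactivator PGC-1alpha, was lower by 1.72, Onecut1 (HNF6) by 1.33, Srebf1 by 1.13 and Foxo3 by 0.73, and of these Foxo3 lost its call with the bacterial controls (-0.14). Over the 5 related lists, which were drawn up with earlier results of these data known, 23 of 85 measured genes were lower and 10 higher (27.1% and 11.8%). With the bacterial controls 7 were lower and 39 higher (8.24% and 45.9%, against 1.86% and 77.7% of all genes).

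**Figure D5:**
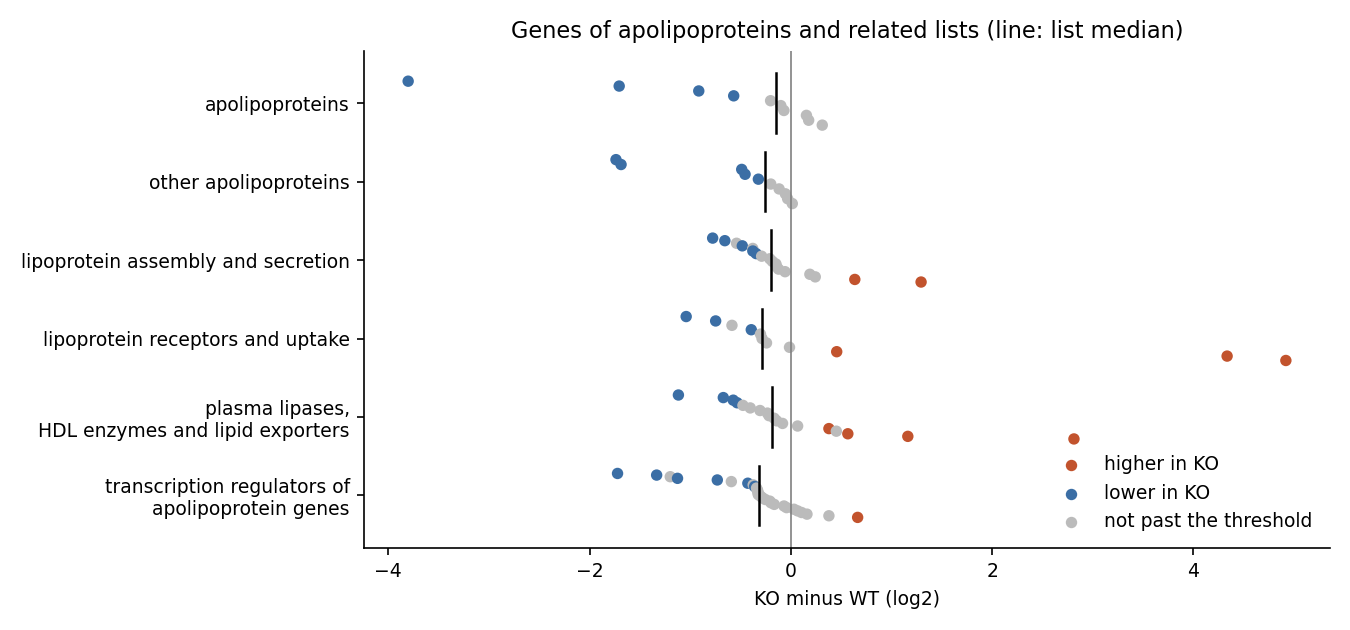
KO minus WT (log2, horizontal axis) of each measured gene of the apolipoproteins and of the 5 related lists, coloured by direction past the threshold, with vertical lines at list medians. Apom is the leftmost point of the apolipoproteins at -3.80, and Cd36 and Vldlr lie far to the right among the receptors.

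Markers of the cell types in the liver pieces were read beside these genes, and their part in the differences was not tested. The marker counts past the threshold stand beside 9.75% lower and 14.2% higher over all genes. For counts at an unadjusted p under 0.05 in limma the share of all genes was not counted. The hepatocyte markers were present, with list medians of 13.7 to 13.75 on WT arrays and 13.48 to 13.52 on KO arrays. Of 8 hepatocyte markers 1 was higher (Ahsg, 0.28) and 2 were lower (Serpina1c, -0.98, and Fgb, -0.49). Alb, Ttr, Cps1, Hnf4a and Ass1 differed by 0.15, 0.07, 0.14, 0.11 and 0.19 without passing. Ass1 read 7.79 ± 0.48 (SD, n = 3) in WT and 7.98 ± 0.31 in KO, far dimmer than Alb at 14.56 in WT. What the probe set of Ass1 covers was not examined. The median of the markers' differences was 0.12, although the list medians were lower on KO arrays. Macrophages also make Apoe, and 0 of 10 macrophage markers passed in either direction, with 0 at an unadjusted p under 0.05 in limma. Their list medians were 8.55 to 9.76 on WT arrays and 9.13 to 9.50 on KO arrays. WT replicate 3 was the lowest WT array for each of these markers. Clec4f, for one, read 10.13, 9.83 and 8.88 in WT and 9.57, 9.25 and 9.37 in KO. With that spread the count of 0 does not show equal levels. Of 8 endothelial markers 3 were lower and 1 was higher, and of 8 stellate and fibroblast markers 2 were lower. Their list medians ran from 7.47 to 7.79 in WT and 7.51 to 7.63 in KO, and from 8.07 to 8.47 and 8.16 to 8.74. Biliary markers were lower in 1 of 5, with medians of 4.85 to 5.28 in WT and 4.63 to 4.91 in KO, around the background. Enterocytes are the other main source of Apoa4, and 0 of 6 enterocyte markers passed (1, Cdx2, was lower at an unadjusted p under 0.05 in limma), with medians of 5.12 to 5.54 in WT and 4.96 to 5.12 in KO. Lct and Vil1 were under background on all arrays, whereas Fabp2 read 10.15 in WT and 10.01 in KO.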

How the data were processed

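Total RNA of 3 WT and 3 KO livers was extracted with Trizol and labelled with biotin, per the labels' protocols. The authors deposited 1 log2 value for each probe set and array, made with RMA as the submitters' processing notes say without a version. The log2 scale was read from the values (2.15 to 14.9). RMA draws the arrays towards one distribution, so a shift of most transcripts is largely removed, and the number of arrays limits the precision. The deposited arrays still differed a little. Their maxima were 14.85 to 14.9 in WT and 14.69 to 14.72 in KO, and their medians 5.078 to 5.103 and 5.044 to 5.051.

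Of 45101 probe sets, 34945 have 1 gene symbol in the platform annotation, 932 have several and 64 are controls. The symbols of the 10 members matched RefSeq (GRCm38.p6) through their gene identifiers. Background was put at 4.90, under which the means of 95% of 38 olfactory receptor genes lie. The test across genes was that of limma 3.58.1, run in R 4.3.3 (two-sided, group as the only factor, no filter). A simulation with independent noise served as a check of the code alone and does not bear on these calls. Differences within arrays were tested by exact permutation.

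The members, gene lists and naming rule were chosen with earlier results of these data known. The rule names all members, up to 4 called genes of each related list by size, 4 fixed genes (Hnf4a, Creb3l3, Mttp and Pex5) and the 3 genes most like the member with the largest difference. Alternatives were a replicate block, a background filter, quantile normalization, centring on the median or on controls, other uses of probe sets, other eBayes options, array weights, a threshold of 0.01 and leaving out each array. Of the listed genes, 17 were not analysed here.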

Additional observations from a re-analysis of the deposited data

How the results depend on the processing

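The count of 4 lower apolipoproteins ran from 3 to 4 without each array in turn, and that of higher ones was 0 each time. The higher count was 6 with the arrays centred on bacterial controls and 3 with trend and robust eBayes (77.7% and 14.8% of all genes). The lower count was 3 and 5 in these settings (1.86% and 9.83% of all genes). It was 5 with the mean of probe sets (9.82% of all genes). The mean of its probe sets made Apob lower (-0.30, adjusted p = 0.0312, limma). Apom, Apoa4 and Apoc3 were called lower in all 16 alternatives of normalization, probe set, model or array, and also at a threshold of 0.01, where Apoa5 was not. With bacterial controls the differences turned to 0.49 for Apoa1, 0.025 for Apoa5, 0.52 for Apob, 0.39 for Apoc1, 0.10 for Apoc4, 0.14 for Apol7a, 0.27 for Apoh, 0.52 for Creb3l3 and 0.11 for Mttp, which follows from the 0.59 added to each. Creb3l3 ran from -0.12 to 0.012 without each array. Over the related lists, 7 were lower and 39 higher with bacterial controls, and 15 lower at a threshold of 0.01. Over all genes 59.3% of calls were higher as deposited, 51.8% with quantile normalization, 66.2% with median centring, 70.6% with Cre centring and 97.7% with bacterial controls.

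Same-numbered WT and KO arrays deviated from their group means with r of 0.10, -0.02 and 0.11, and WT replicate 1 correlated best with KO replicate 2, so the numbers were not taken to pair livers. With the replicate number as a block 4 apolipoproteins were lower and 0 higher, and Apol7a and Apoh lost their calls (adjusted p = 0.0781 and 0.0524, limma), leaving 3 of the further apolipoproteins lower. The related lists then had 20 lower and 9 higher. Differences within arrays kept their sign when probe sets were averaged or an array was left out, and none moved by more than the larger of its group SDs.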
